A study of Mus musculus with 2 samples.

Results

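Transforming growth factor beta (TGF-beta) signals through a short chain of proteins. The ligand brings a type II receptor and a type I receptor together at the cell surface, the type I receptor phosphorylates SMAD2 and SMAD3, and these enter the nucleus with SMAD4 to act on target genes, while SMAD7 blocks the receptor and SKI, SnoN and TGIF1 restrain the SMADs on DNA. In the mouse gut the pathway is known to influence the balance between subsets of innate lymphoid cells. The genes described here are the 10 genes Tgfb1, Tgfbr1, Tgfbr2, Smad2, Smad3, Smad4, Smad7, Ski, Skil and Tgif1, out of 21887 protein-coding genes of the mm10 build. Their chromatin was read in lymphoid tissue inducer (LTi) cells, innate lymphoid cells that take part in building Peyer's patches and lymph nodes, by chromatin immunocleavage sequencing (ChIC-seq). In this assay an antibody, here against the transcription factor TCF-1 encoded by Tcf7, carries micrococcal nuclease to its target and the released DNA is sequenced.

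The series holds 1 library of Tcf7fl/fl-VavCre LTi cells sorted from small intestinal lamina propria and 1 library of Tcf7+/+ LTi cells from Peyer's patches. Vav-Cre is active throughout the haematopoietic lineages, so the floxed gene is lost in blood cells at large and not in LTi cells alone. All mice were C57BL/6, and both libraries came from 500 sorted cells with the surface phenotype Lin-, CD127+, CCR6+, KLRG1-, NK1.1-, NKp46-. Genotype and tissue changed together and cannot be told apart. The deposited table counts reads of a peak library and a control library in 19531 islands, which are stretches of clustered reads, with 483771 peak-library and 189291 control-library reads in all. Its header ties neither column to a genotype, so every value below compares the peak with the control library and gives no direction between genotypes, and the loss of Tcf7 was not checked. With 1 library on each side no difference has a replicate check, and intervals express counting error alone. Fold and false discovery rate (FDR) of a single island are the values of the authors' caller.

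An island was assigned to a gene when it overlapped the RefSeq gene body or the 10 kb on either side of it by at least 1 bp. This gave 47 of the 19531 islands. The genes were selected on earlier results from these same read counts, so the counts below describe the genes and are no test of them. The farthest island inside the rule lay 8805 bp from Tgif1 with 9 against 3 reads and a fold of 1.50, and the nearest outside it lay 11838 bp from Tgfbr2 with 24 against 7 reads and a fold of 1.72.

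All 10 genes had an island, where 54.7% of protein-coding genes did, and each of the 10 had a called island, where 40.3% did. Called here means that the caller's FDR was 0.05 or less. Without islands that overlap the body of another gene, 9 of the 10 had a called island, with Tgfb1 the exception. The loci are longer than usual, with a median of 85.1 kb against 37.2 kb for all protein-coding genes. Among the 12206 genes whose loci fall in the same range of 29.3 to 131 kb, 63.6% had an island and 47% a called one. The median was 4 islands per gene for the 10 genes and 1 for the genes in that range. Tgfbr2 and Smad3 had the most, 8 islands each, more than 99.4% of the genes in that range. Smad2 had the fewest, a single island. The genes in that range have a median locus of 46.7 kb, so most are shorter than Tgfbr2 at 108 kb and Smad3 at 131 kb. Per 100 kb of locus Tgfbr2 had 7.43 islands and Smad3 6.1, fewer than Tgfb1 at 10.5. Pooled, the 10 genes had 6.25 islands per 100 kb and the genes in that range 2.31. Of the 47 islands, 32 (68.1%) were called, close to the 62.5% of all islands, and 11 (23.4%) had an FDR of 1e-05 or less, close to the 20.7% of all islands. The share of called islands was thus near that of the whole table.

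Summed over the 47 islands, the peak library had 1083 reads and the control library 301, a pooled fold of 1.80 (95% interval 1.58 to 2.05) after the caller's scaling factor of 1.997. For the 19466 other nuclear islands under 200 peak-library reads the pooled fold was 1.62 (1.61 to 1.63), and the difference was not tested. The median fold was 2.17 for the 47 islands and 1.84 for the others. A single island had a fold below 1, where 10.2% of all islands did. The counts were small: an island of these genes had 9 to 66 peak-library reads and 1 to 28 control-library reads, and 18 of the 47 had 3 or fewer control reads. The caller takes the control count as free of error. When both counts were given their error, in a one-sided exact binomial test over all islands with Benjamini-Hochberg adjustment, the test passed 84 islands, 0.43% of the table, and 1 of them lay at these genes, within Smad3.

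**Figure D1:**
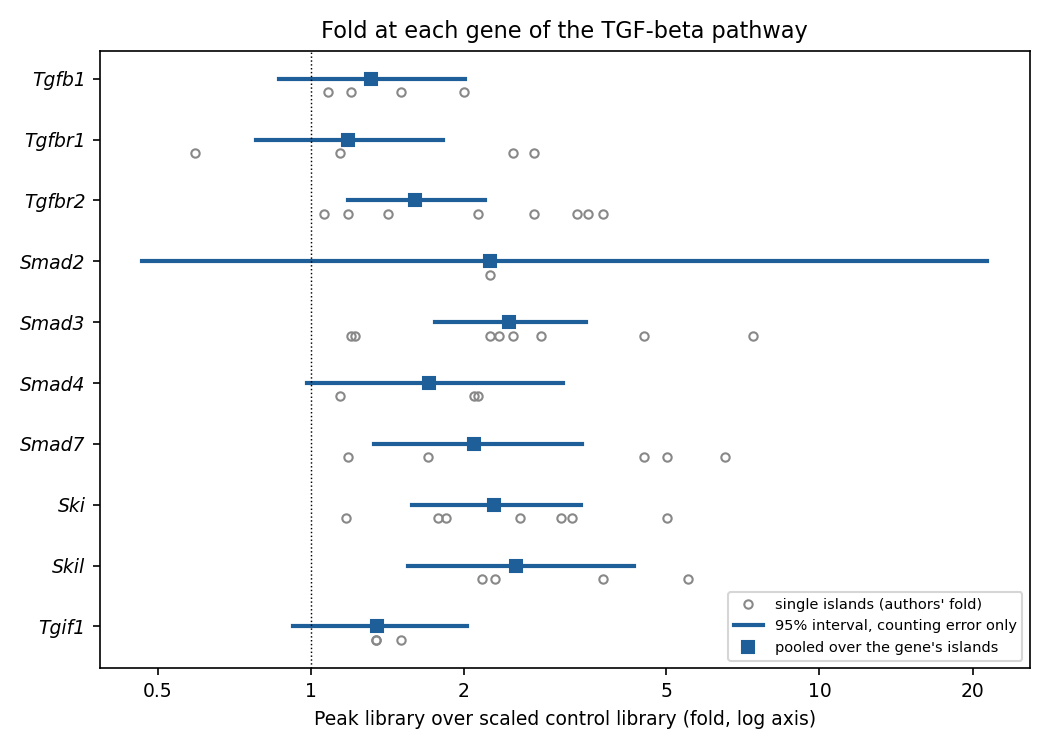
Fold of the peak library over the scaled control library at each of the 10 genes, on a log axis; squares are reads pooled over a gene's islands, lines the 95% intervals for counting error, and open circles the single islands. Smad3, Ski, Skil, Smad7 and Tgfbr2 have intervals above 1, while Tgfbr1 at 1.18, Tgfb1 at 1.31 and Tgif1 at 1.35 have intervals that include 1.

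Pooled folds ran from 1.18 to 2.53 among the genes. Intervals above 1 were those of Skil at 2.53 (1.55 to 4.32), Smad3 at 2.45 (1.75 to 3.48), Ski at 2.29 (1.58 to 3.40), Smad7 at 2.09 (1.33 to 3.41) and Tgfbr2 at 1.60 (1.18 to 2.20). Intervals that included 1 were those of Smad2 at 2.25 (0.466 to 21.4), Smad4 at 1.71 (0.981 to 3.13), Tgif1 at 1.35 (0.920 to 2.03), Tgfb1 at 1.31 (0.864 to 2.01) and Tgfbr1 at 1.18 (0.780 to 1.82). With the caller's scaling 1 is not the level of a usual island, as the other nuclear islands under 200 peak-library reads pooled to 1.62. The interval of Smad3 lay above 1.62 and those of the other 9 genes included it. Without its strongest island Smad3 pooled to 1.94 (1.36 to 2.83), an interval that also includes 1.62. Intervals of neighbours in the order of folds overlapped. The interval of Smad3 began at 1.75, below the 1.82 at which that of Tgfbr1 ended. Overlap of intervals does not show that folds are alike, and no difference between genes was tested. All 10 folds lay above 1 with the caller's scaling, whereas Tgfbr1 lay below it, at 0.921, with the totals of the table set equal, and the interval of Tgfbr2 then included 1 (0.922 to 1.72).

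The start side of a gene was known for 6 of the 10 from the RefSeq promoter table: Tgfb1, Tgfbr1, Tgfbr2, Smad3, Ski and Tgif1. An island covered the 250 bases before the first start at Tgfb1, Tgfbr1, Tgfbr2 and Tgif1 and reached part of them at Ski, and none reached them at Smad3. Printed are the windows of Tgfbr1 and Tgif1, which hold a motif match, that of Tgfbr2, which lies under the widest island of the gene, and that of Smad3, which lies under none. Sequences are those of RefSeq (GRCm38.p6), 5′ to 3′ on the gene's strand, and capitals mark matches to the TCF/LEF core letters CTTTGA or CTTTGT or to the SMAD letters CAGACA on either strand.
Tgfbr1, chr4:47352972-47353221, + strand: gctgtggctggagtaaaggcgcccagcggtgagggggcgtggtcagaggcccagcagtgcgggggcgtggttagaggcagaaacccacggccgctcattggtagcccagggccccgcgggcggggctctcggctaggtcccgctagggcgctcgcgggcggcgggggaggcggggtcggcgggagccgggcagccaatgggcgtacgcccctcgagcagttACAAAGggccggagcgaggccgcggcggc
Tgfbr2, chr9:116175364-116175613, - strand: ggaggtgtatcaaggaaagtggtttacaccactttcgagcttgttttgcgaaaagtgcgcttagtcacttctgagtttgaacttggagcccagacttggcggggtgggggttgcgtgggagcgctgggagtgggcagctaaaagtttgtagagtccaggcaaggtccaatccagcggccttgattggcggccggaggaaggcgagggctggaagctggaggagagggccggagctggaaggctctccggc
Smad3, chr9:63757995-63758244, - strand: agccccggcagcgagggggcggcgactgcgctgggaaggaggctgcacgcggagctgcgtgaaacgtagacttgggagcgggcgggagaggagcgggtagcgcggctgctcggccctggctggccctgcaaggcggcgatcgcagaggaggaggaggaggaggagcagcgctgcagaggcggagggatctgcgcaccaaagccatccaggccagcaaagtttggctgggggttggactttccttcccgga
Tgif1, chr17:70853533-70853782, - strand: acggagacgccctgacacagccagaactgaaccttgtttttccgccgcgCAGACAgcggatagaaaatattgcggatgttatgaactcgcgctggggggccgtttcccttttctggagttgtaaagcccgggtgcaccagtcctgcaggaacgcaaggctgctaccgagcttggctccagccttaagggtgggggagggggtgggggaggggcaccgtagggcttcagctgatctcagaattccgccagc
The Tgfbr1 window held CTTTGT on the opposite strand (ACAAAG as printed), 29 bases before the start, and the Tgif1 window held CAGACA, 201 bases before it. No match was found in the windows of Tgfbr2, Smad3, Ski and Tgfb1. RefSeq lists 11 starts for the 6 genes, 5 of them for Tgif1. Of the 11 windows, 4 held a TCF/LEF core, namely both of Tgfbr1 and 2 of Tgif1, and 3 held CAGACA, where 27.6% and 17.1% of all 32851 promoter windows of the table did. Both of these Tgif1 windows, chr17:70849791-70850040 with 1 match and chr17:70846778-70847027 with 3, lie within the called island of that gene. Starts of 1 gene are not independent of each other, so these counts are a description. The 6 windows were rich in G and C, from 58.4% at Tgfbr2 to 87.6% at Ski, against a median of 52.4% over all windows.

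Tgfb1 encodes the ligand TGF-beta1 and lies on chromosome 7 at 25687002 to 25705077. It had 4 islands with 86 against 33 reads, all on its start side or upstream of it. All 4 also lie in the loci, flanks included, of Tmem91 and B9d2, so none can be given to Tgfb1 alone. The island over the start had 18 against 6 reads and a fold of 1.50 at an FDR of 0.0575, and the next, 1399 bp into the gene, had 24 against 10 reads and 1.20. Upstream, an island with 28 against 13 reads and another with 16 against 4 overlapped the body of B9d2. The one with 16 against 4 reads, at a fold of 2.00 and an FDR of 0.00752, was the single called island of Tgfb1.

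The receptors differed in how many islands they carried. Tgfbr2, the type II receptor that binds the ligand, lies on chromosome 9 at 116087695 to 116175363 and had 8 islands, 5 of them called, with 179 against 56 reads. The island over its start was 6800 bp wide, wider than 99.8% of nuclear islands, and had the most reads of the 47, yet its 66 against 28 reads gave a fold of 1.18 (0.748 to 1.91) and no call. The 5 called islands were small: 20 against 3 reads 5763 bp into the gene (fold 3.34, FDR 6.95e-06), 17 against 4 reads 14163 bp in, 11 against 2 reads 34763 bp in, 14 against 2 reads 59963 bp in, and 15 against 2 reads 5238 bp upstream. Their folds ran from 2.13 to 3.76.

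Tgfbr1, the type I receptor kinase, lies on chromosome 4 at 47353222 to 47414926 and had 4 islands with 80 against 34 reads. Over the start, 41 against 18 reads gave a fold of 1.14 (0.641 to 2.11). The next island, 1979 bp into the gene, had 13 against 11 reads and a fold of 0.592 (0.245 to 1.46), the sole one of the 47 below 1. Deeper in the gene, 11 against 2 reads and 15 against 3 reads gave folds of 2.75 and 2.50 and were called at an FDR of 0.00226 and 0.00135. The 30526 bp between this last island and the end of the gene held no island.

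Smad3, a receptor-activated SMAD that binds DNA, held the island with the lowest FDR among the 47. The gene lies on chromosome 9 at 63646766 to 63757994 and had 8 islands, 6 of them called, with 210 against 43 reads. The island at chr9:63719001-63722200, 35794 bp into the gene, had 59 peak-library and 4 control-library reads. Its fold was 7.39 (2.74 to 28.0) and its FDR 6.72e-29. It ranked 19 of 19531 by FDR and above 92.1% of nuclear islands by fold, and it was the island of these genes that passed the exact binomial test (adjusted p = 0.00423, Benjamini-Hochberg over all islands).

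Around it, 6 of the 8 Smad3 islands formed a run of 25.8 kb at chr9:63715801-63741600, a stretch picked out after its values were seen, with 188 against 36 reads. The pooled fold of the run was 2.62 (1.82 to 3.85), or 2.02 (1.36 to 3.07) without its strongest island. Its other members had 18 against 4, 34 against 14, 17 against 3, 42 against 9 and 18 against 2 reads. Of these, 42 against 9 (fold 2.34, FDR 2.23e-06) and 18 against 2 (fold 4.51, FDR 3.62e-07) had the lower FDRs, whereas 34 against 14 was not called at an FDR of 0.151. The last 59.6 kb of the gene held no island. No island covered the start either, and the nearest, 1007 bp upstream, had 10 against 2 reads and a fold of 2.50.

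Smad2 and Smad4 carried fewer islands than Smad3. Smad2, the other receptor-activated SMAD of the pathway, spans 70659 bp on chromosome 18 (76241090 to 76311748) and had 1 island, over its lower-coordinate end, with 9 against 2 reads, which gives a fold of 2.25 (0.466 to 21.4). Of the genes with loci of 29.3 to 131 kb, 36.4% had fewer islands than this. Their median locus was 46.7 kb, against 90.7 kb for Smad2, so that share is not matched for length. Smad4, the common partner of the activated SMADs, lies on the same chromosome at 73634790 to 73703791 and had 3 islands. Near its upper-coordinate end, 25 against 6 reads lay 591 bp inside it (fold 2.09, FDR 0.000831) and 16 against 7 reads lay 10 bp outside it (fold 1.14, FDR 0.295). Another island, 4390 bp beyond the lower end, had 17 against 4 reads and a fold of 2.13. Strand was not used here for Smad2, Smad4, Smad7 and Skil, so their ends are named by coordinate.

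Smad7, the inhibitory SMAD that is itself induced by TGF-beta, lies on chromosome 18 at 75367365 to 75395935 and had 5 islands with 100 against 24 reads, 4 of them called. The island over its lower-coordinate end had 33 against 14 reads, a fold of 1.18 and an FDR of 0.192. The 4 inside the gene had higher folds: 27 against 3 reads 10036 bp from that end (4.51, FDR 8.08e-10), 13 against 1 reads 24836 bp from it (6.51, interval 0.978 to 277), 10 against 1 reads (5.01) and 17 against 5 reads (1.70). The first of them had an adjusted p of 0.0926 in the exact binomial test with Benjamini-Hochberg adjustment and did not pass.

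Most islands of the corepressors Ski and Skil were called. Ski lies on chromosome 4 at 155154075 to 155222535 and had 7 islands with 160 against 35 reads, 6 of them called. Its start was covered by 14 against 6 reads with a fold of 1.17 and no call. Just 666 bp upstream, 36 against 7 reads gave a fold of 2.58 (1.13 to 6.86, FDR 1.45e-06), and 59135 bp into the gene 31 against 5 reads gave 3.10 (1.20 to 10.2), with the lowest FDR of the gene, 1.92e-07. Another 26 against 4 reads, 22535 bp in, gave 3.26 (1.13 to 12.8). Skil, which encodes SnoN, lies on chromosome 3 at 31095058 to 31122923, and all 4 of its islands were called, with 101 against 20 reads. Its island over the lower-coordinate end had 52 against 12 reads and a fold of 2.17 (1.14 to 4.47, FDR 1.32e-06). The other 3 had 11 against 1, 15 against 2 and 23 against 5 reads, with folds of 5.51, 3.76 and 2.30.

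Tgif1, a homeodomain protein that recruits corepressors to SMADs, is the shortest of the genes, at 9328 bp on chromosome 17 (70844205 to 70853532). Wide islands covered much of it: 4200 bp with 51 against 19 reads (fold 1.34, FDR 0.0297) and 2800 bp with 40 against 15 reads over the first start (fold 1.34, FDR 0.0506). RefSeq lists 5 starts for this gene, and both islands covered at least 1 of them. Another island, 8805 bp outside the gene, had 9 against 3 reads. The 3 folds of 1.34 to 1.50 spanned the narrowest range among the genes with more than 1 island.

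**Figure D2:**
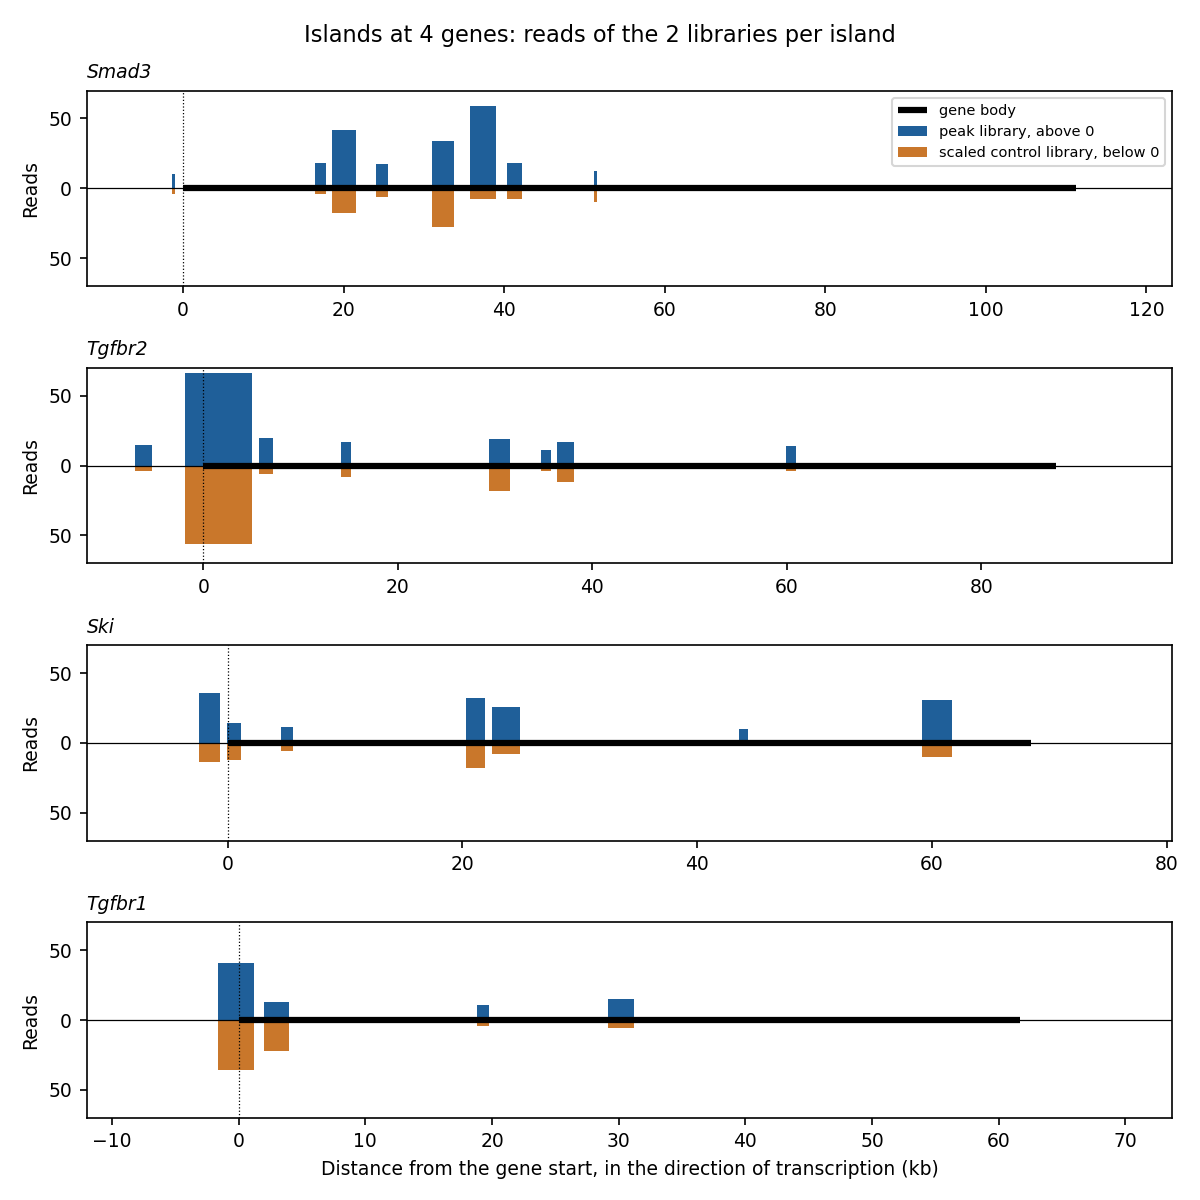
Reads of each island at Smad3, Tgfbr2, Ski and Tgfbr1 against distance from the gene start in kb; blue bars above 0 are peak-library reads, orange bars below 0 are control-library reads times 1.997, bar width is island width and the black line is the gene. At Tgfbr2 and Tgfbr1 the bars over the start are nearly as long below 0 as above it, and at Smad3 the longest bar, 59 reads, has little below it.

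Islands over a gene end pooled to a lower fold than islands elsewhere at these genes. Smad3 and Smad4 had no such island, and those of Smad2 (9 against 2 reads), Ski (14 against 6) and Tgfb1 at its start (18 against 6) had few reads. The 9 islands over an end of a protein-coding gene (8 over an end of these genes and 1 over an end of B9d2) had 301 against 114 reads and pooled to a fold of 1.32 (1.06 to 1.66). Of these 9, 2 were called. The 38 islands elsewhere had 782 against 187 reads and pooled to 2.09 (1.78 to 2.47), and 30 were called. Median control reads were 13 over a gene end and 4 elsewhere. Over islands with at least 20 peak-library reads the pooled folds were 1.30 (1.03 to 1.66) in 6 islands over an end and 2.20 (1.76 to 2.77) in 13 elsewhere. Median control reads in these were still 14.5 and 6, so depth was not matched, and its part in the difference was not tested. With the totals set equal, the islands over a gene end had a pooled fold of 1.03 (0.830 to 1.29) and those elsewhere 1.64 (1.39 to 1.93). The same order held for all nuclear islands under 200 peak-library reads, at 1.42 (1.41 to 1.44) for 6759 islands over a gene end and 1.82 (1.80 to 1.83) for 12754 elsewhere. Skil, at 2.17 over its end, and Smad2, at 2.25 from 11 reads, had the highest folds of the 9.

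**Figure D3:**
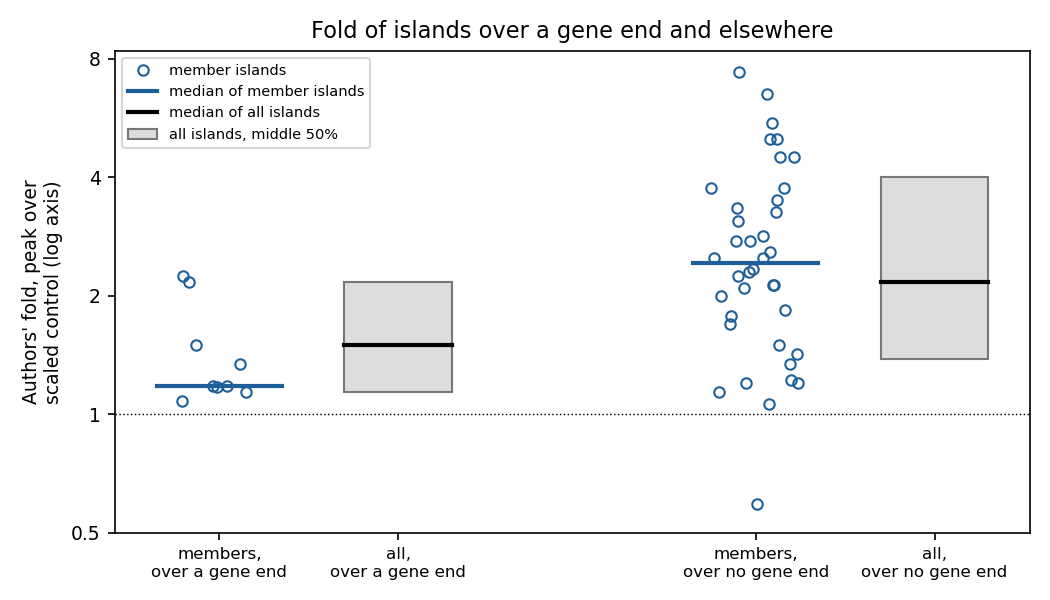
Fold of single islands on a log axis, for islands over a gene end on the left and elsewhere on the right; open circles are islands of the 10 genes with their median as a blue line, and grey boxes are the middle 50% of nuclear islands under 200 peak-library reads with their median in black. The median of the 10 genes' islands is 1.18 over a gene end and 2.42 elsewhere, and that of all islands is 1.50 and 2.17.

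A gene chosen for its islands is more likely to have one at any given place, so the positions along the genes are a description. Among the 6 genes with a known start, each with at least 3 islands, 5 had an island over the first start, close to the 74.5% of 1223 protein-coding genes that also have 3 or more islands and whose first start is a gene end in the table. None had an island over the last base, where 14.3% of the 1223 did. Of the 23 islands wholly inside the 6 genes, 19 (82.6%) were nearer the start than the end, against 1056 of 1750 (60.3%) in the 1223 genes. Islands of a gene are not independent of each other, and 7 of the 19 are those of Smad3.

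The rest of the pathway was read from 86 other genes in 7 lists. Of these, 60 had an island and 50 (58.1%) a called island, where 54.7% and 40.3% of protein-coding genes did. These shares are not matched for length. Median loci ran from 28.9 kb for genes known to respond to TGF-beta to 110 kb for other receptors and receptor partners. Over all protein-coding genes the median was 37.2 kb. Reads in their 136 islands were 2986 against 903, which pooled to a fold of 1.66 (1.54 to 1.79) with a median of 2.00, and 94 of them (69.1%) were called. No island at them passed the exact binomial test. Ligands other than TGF-beta1, with a median locus of 29.1 kb, were nearly bare, and 2 of 12 had an island. These were Gdf15 with 48 against 11 reads and Inhba, the activin A subunit, with 27 against 2 reads. No island was found at Tgfb2 and Tgfb3. Among 12 genes for ligand latency and activation, 5 had an island and 3 had a called one, namely Furin, the protease that cleaves the precursor (74 against 22 reads), Nrros (33 against 7) and the integrin gene Itgav (20 against 4). Ltbp1 and Ltbp3, which encode latent TGF-beta binding proteins, had none.

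Other receptors and receptor partners had islands at 9 of 14 genes, 8 with a called one. Acvr2a, an activin receptor, had 3 islands with 34 against 6 reads, pooling to 2.84 (1.18 to 8.27). The BMP receptors Bmpr1a and Bmpr2 had 20 against 1 and 19 against 5 reads, and Acvr1 and Acvr1c had no island. Other SMAD genes and DNA-binding partners had islands at 10 of 12 genes, 7 with a called one. Runx3, a partner of SMADs, led with 9 islands and 181 against 52 reads, followed by Sp1 (93 against 40) and Zeb1 (44 against 11). Smad6, the second inhibitory SMAD, and the coactivator gene Crebbp had none. Every gene of 12 for ubiquitin ligases and other regulators had an island, and 10 had a called one. Ldlrad4, which restrains SMAD activation, had 5 islands with 105 against 29 reads, Stub1 had 50 against 14 and Usp4, a deubiquitinase, had 81 against 26. All 4 Usp4 islands also lie in the locus of Rhoa, a gene of the next list, so none can be given to Usp4 alone.

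SMAD-independent signalling genes had islands at all 12 loci, a called one at 11 and a median of 4 islands per gene, as many as the 10 genes had. Mapk8, which encodes JNK1, had 82 against 11 reads over 4 islands, pooling to 3.73 (1.98 to 7.77), Rhoa had 137 against 42 and the adaptor gene Shc1 had 127 against 31. The Rhoa reads include those of the islands shared with Usp4. Of 12 genes known to respond to TGF-beta, 10 had an island and 9 a called one, with a pooled fold of 1.46 (1.27 to 1.68). Cd69, a marker of tissue residency, had 3 islands, all called, with 165 against 54 reads. Junb had 224 against 97 reads, pooling to 1.16 (0.907 to 1.48), and Tnfrsf1b had 82 against 30. Ctgf, a classic SMAD3 target in other cell types, had none.

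Set beside other signalling genes of these cells, the 10 genes had a pooled fold of 1.80, against 1.59 (1.40 to 1.81) for 52 islands at 11 JAK and STAT genes, 1.56 (1.27 to 1.93) for 16 islands at 8 SOCS genes and 1.35 (1.18 to 1.56) for 31 islands at 10 NF-kB subunit and inhibitor genes. The interval of the TGF-beta genes overlapped those of the JAK and STAT and of the SOCS genes and began at 1.58, just above the end of the NF-kB genes' at 1.56, and none of these differences was tested. The pathway lists beyond the 10 genes pooled to either side of 1.80. Other ligands pooled to 2.89 (1.59 to 5.68), other receptors and receptor partners to 2.57 (1.72 to 3.97). SMAD-independent genes pooled to 1.82 (1.58 to 2.12). Below 1.80 were ubiquitin ligases and other regulators at 1.68, latency and activation at 1.53, other SMAD genes and partners at 1.51 and responding genes at 1.46. These differences were not tested either. Median islands per gene were 4 for the TGF-beta genes, 4 for JAK and STAT, 2 for SOCS and 2.5 for NF-kB genes. Their median loci were 85.1, 62.4, 44.2 and 32.9 kb in the same order, so these counts are not matched for length.

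The marker lists give the setting of these values, as reads on chromatin and not as expression. All 8 LTi markers had a called island, among them Kit with 129 against 7 reads, Cxcr5 with 122 against 41 and Ltb with 240 against 74. Their islands pooled to a fold of 1.82 (1.60 to 2.08), against the 1.80 of the TGF-beta genes. Kit alone pooled to 9.23 (4.35 to 23.4) and the other LTi markers to between 1.41 and 3.09. The list was not pooled without Kit. Markers of other cells also had called islands, where 40.3% of protein-coding genes have one. Among 6 B cell markers 5 had one, led by Ebf1, Cd79a and Pax5, with a pooled fold of 1.49 (1.16 to 1.93). Stromal and endothelial markers had one at 3 of 7 genes (Pecam1, Pdgfrb and Pdgfra, with no island at Col1a2 and Dcn) and pooled to 1.92 (1.43 to 2.62). Pdgfrb, the PDGF receptor of pericytes and fibroblasts, had 46 against 3 reads over 4 islands, all called, and a pooled fold of 7.68 (2.47 to 38.6). Myeloid markers had one at 2 of 6 genes (Cd14 and Spi1, with no island at Csf1r and Lyz2) and pooled to 2.25 (1.19 to 4.63). Of 6 epithelial markers 1 had one (Cdh1, with no island at Epcam and Vil1), and the list pooled to 1.79 (0.752 to 4.90). TGF-beta pathway genes are used by many of these cell types, and the part of other cells in the islands described here was not tested.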

How the data were processed

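ChIC-seq libraries of TCF-1 were made from 500 fixed LTi cells each, per the labels' protocols. The submitters' processing notes name the aligner Bowtie2 (2.4.2), the island caller SICER (2.0) and the build mm10; the caller's settings are not given in the sources used. Read counts per island were deposited by the authors as raw counts for 2 libraries that the file headers call peak and control. The fold was deposited as a ratio of peak reads to control reads times 1.997, and the p-value and FDR were deposited by the authors. Recomputed p-values differed from the deposited p-values by at most 4.77e-08. The caller's p-value treats control reads as known. No column was tied to a sample, so the genotypes were not compared. Depth of the whole libraries is unknown.

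Starts and ends were increased by 1 to count from 1. Genes and starts came from RefSeq (GRCm38.p6, the mm10 build), all 10 genes matched by symbol, and so did every gene of the other lists, with Ctgf matched by its older name. Strand and promoters were available for 6 of the 10. A genome sequence was not used here, so islands could not be read for motifs. Pooled folds divide summed reads by the scaled control reads, with exact conditional binomial (Clopper-Pearson) 95% intervals for counting error alone. The intervals treat each read as independent. PCR copies are not independent molecules, so the intervals can be too narrow. Comparing positions with genes that have 3 or more islands was added after seeing the data. The one-sided exact binomial test ran over all 19531 islands and was checked on simulated data. Python 3.11.15, SciPy 1.17.1 and pandas 2.3.3 were used. The members, the gene lists and the tests were chosen with earlier results of these data known. Named are all 10 genes, per gene the islands with the most reads, the lowest FDR and the shortest distance to the start, and per other list the 3 genes with the most called islands and the first 2 without an island. A gene that this rule names is not reported here. The marker, JAK and STAT, SOCS and NF-kB lists follow the same rule, but genes of the last 3 lists are not named. Alternatives covered the locus, the overlap, a read minimum, the FDR, the test and the scaling.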

Additional observations from a re-analysis of the deposited data

How the results depend on the processing

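No paired analysis was possible because each genotype has 1 library and no column is tied to a sample, and for the same reason no library could be left out. The counts of islands, of called islands and of genes with a called island moved by less than 1.5 times, and the pooled fold stayed inside its interval, with gene bodies alone, 5 kb or 50 kb of flank, islands outside other gene bodies and an overlap of at least 50% of the island. With at least 20 peak-library reads 19 islands were left, 12 of them called. At an FDR of 1e-05 or less 11 islands at 5 genes were called, and the exact binomial test called 1 island at 1 gene. These settings ask for more reads or stronger evidence by construction. The pooled fold was 1.41 with equal totals and 3.60 with unscaled reads, which shift every fold by -0.36 and 1.00 on the log2 scale. Equal totals left 26 called islands at 7 genes, and 9 of 10 gene folds above 1, and unscaled reads took 9 of 10 gene folds above their intervals. The totals set equal include mitochondrial islands and islands with 200 or more peak-library reads. Without those the table holds 386196 against 119307 reads, which pool to 1.62 with the caller's scaling. Setting these totals equal would lower every fold further, and that setting was not run. The pooled fold without the strongest Smad3 island, an alternative chosen after seeing the data, as were those for islands over gene ends, was 1.73 (1.52 to 1.97). With few control reads per island, depth limits every single-island fold.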
